A study of Homo sapiens with 6 samples.

Results

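The genes described here encode the 7 proteins known as components of the U11/U12 particle of the minor spliceosome: SNRNP25, SNRNP35, SNRNP48, ZMAT5, PDCD7, RNPC3 and ZCRB1. They were chosen by name, from a list of 7 symbols, with earlier results of these data known. SNRNP25 was already known to stand among the largest rises. All 7 were listed in all 6 libraries, among 17789 symbols listed in at least 1 library, and all 7 were among the 13340 genes that passed the filter on low values (0.5 FPKM on average over the 6 libraries; FPKM counts sequenced fragments, scaled to transcript length and library size).

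Most human introns are removed by the major spliceosome, but a small class, the U12-type introns, is recognised by a separate set of small nuclear ribonucleoproteins. In that minor spliceosome U11 pairs with the 5′ splice site and U12 with the branch site, and the pair enters the intron as a preformed particle. The 7 proteins belong to this particle and have no place in the U1 and U2 particles that do the same work at ordinary introns, whereas the Sm and SF3b proteins serve both machineries.

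The study used cells labelled A549, an established line from a human lung carcinoma, in a control group called wild type (3 libraries) and in a group transfected with a pool of small interfering RNAs against FOXD3 (3 libraries), a forkhead transcription factor. The labels put the check of the knockdown at 72 h after transfection and do not say what the control cells received. Nothing in them says that the replicates were separate cultures. The p-values therefore set group differences against the spread between these libraries, which may be technical.

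FOXD3 itself stood at 0.152, 0.291 and 0.134 FPKM in the control libraries, at 0.0749 FPKM in knockdown replicate 2, and was not listed in knockdown replicates 1 and 3. The groups did not overlap, but p was 0.1 in a two-sided exact permutation test, the lowest reachable with 3 against 3, and all these levels are near the detection limit. A549 is known for a homozygous deletion at CDKN2A, yet CDKN2A was listed at 154 to 155 FPKM in the control libraries and at 126 to 129 FPKM in the knockdown libraries, which goes against the label of the line in both groups. The 5 epithelial markers (KRT8, KRT18, KRT19, CDH1, EPCAM) were all present, summing to 5051 to 6021 FPKM in control and 7215 to 7277 FPKM in knockdown libraries. Of the 4 alveolar type II markers SFTPB was not listed in any library, SFTPC in only 1 and SFTPA1 in 5, at no more than 0.139 FPKM. The fourth, NKX2-1, was listed in all 6, at 1.16 to 1.39 FPKM in control and 1.56 to 1.65 FPKM in knockdown libraries (limma adjusted p = 0.103). CD14, a monocyte marker, fell from 2.92 ± 0.613 to 1.25 ± 0.304 FPKM (log2 change -0.80, limma adjusted p = 0.00185), while PTPRC, the pan-leukocyte marker, was listed at no more than 0.309 FPKM and CD3E in 1 library only. Endothelial markers (PECAM1, CDH5) summed to 2.48 to 3.22 FPKM in control and 1.79 to 2.03 FPKM in knockdown libraries, and fibroblast markers (COL1A1, COL1A2, DCN) to 3.51 to 4.39 and 2.94 to 3.46 FPKM, with DCN not listed at all; their part in the results below was not tested. Small RNAs held 4.85% of all FPKM in knockdown replicate 2, against 1.02% to 1.94% elsewhere. Counts are not part of the tables. A rough estimate from intronless genes, of which only 4 to 8 per library were usable, put the libraries at 6580000 to 7910000 fragments. At that depth the smallest fragment number of any member, for ZMAT5, would be about 71.3, with a counting error of 11.8%.

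SNRNP25, a U11-associated protein with a ubiquitin-like fold, was the only member that rose. Its FPKM was 12.4, 10.6 and 9.49 in control replicates 1, 2 and 3, against 38.6, 40.8 and 35.2 in the 3 knockdown replicates. Every knockdown value was above every control value, and the gap between the groups was wider than the spread within either. The mean went from 10.9 ± 1.48 to 38.2 ± 2.78 FPKM (SD, n = 3), a 3.52-fold rise. In log2(FPKM + 1), a scale that shrinks the changes of weakly expressed genes, it rose by 1.73 (SE 0.0963; limma, Benjamini-Hochberg adjusted p = 3.61e-06). That change ranked 41 among the rises of 13340 genes, of which 1.71% were called and rose by at least 1 on this scale. In the authors' deposited table SNRNP25 went from 10.1 to 39.5 FPKM with a false discovery rate of 0.000722. In these bulk libraries a change in the number of cells that carry a transcript and a change in its amount per cell cannot be told apart.

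**Figure D1:**
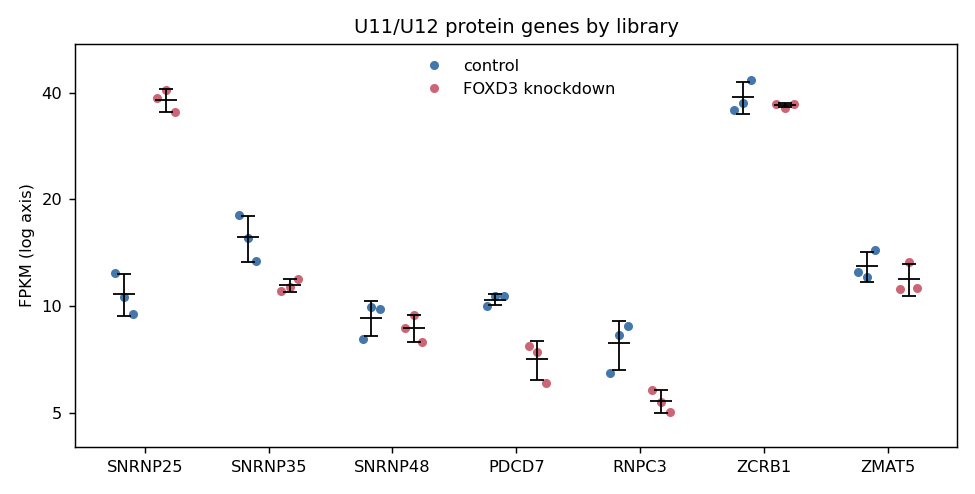
FPKM (log axis) of the 7 U11/U12 protein genes, with 1 point per library, a horizontal tick for the mean and bars of 1 SD (n = 3). SNRNP25 lies at 35.2 to 40.8 FPKM in the knockdown libraries against 9.49 to 12.4 in control, while ZCRB1 lies at 36.3 to 37.2 in knockdown and 35.9 to 43.4 in control.

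The gene next to SNRNP25 rose with it. SNRNP25 lies on chromosome 16 from 103829 to 107669 (hg19, as the deposited tables give it), and POLR3K, which encodes a small subunit of RNA polymerase III, ends 196 bp before it, from 96979 to 103632. RefSeq places the 2 genes on opposite strands with their starts facing away from each other, so that they share the bases between them. These bases are shown because both genes of the pair rose. They run 5′ to 3′ on the plus strand, the strand of SNRNP25 (RefSeq, GRCh38.p14, chr16:53609-53827), with the start of POLR3K just before the first base and that of SNRNP25 just after the last. Capitals mark GGGCGG, the SP1 motif, and CCAAT on either strand (CCGCCC and ATTGG where they lie on the minus strand); the CCAAT motif was added after the sequence had been seen.
SNRNP25 and POLR3K, bases between the starts: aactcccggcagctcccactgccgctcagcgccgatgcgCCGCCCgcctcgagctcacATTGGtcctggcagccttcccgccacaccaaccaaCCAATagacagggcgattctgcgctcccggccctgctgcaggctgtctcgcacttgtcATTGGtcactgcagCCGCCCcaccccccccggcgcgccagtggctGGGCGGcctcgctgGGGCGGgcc

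The stretch is 219 bases long with a GC content of 71.2%, where the median of all 300 bp promoters was 58.7%. It holds 4 copies of GGGCGG and 3 of CCAAT, counted on both strands and without overlap between the motifs. In windows of 250 bases before to 50 after the start, 9.06% of all 35116 RefSeq promoters hold at least 4 copies of GGGCGG and 3.26% at least 3 of CCAAT. These shares were not worked out for the genes tested here. Both copy limits are the counts seen in this promoter, so neither share is a test of rarity. Of the other motifs searched on both strands, none lay in the SNRNP25 or POLR3K window: CACGTG (E-box) was found in 7.26% of all promoters, CCGGAAG (ETS) in 10.3%, GCATGCGC (NRF1) in 3.05% and AAGATGGC (YY1) in 2.89%. Promoter sequences were matched for 6 of the 7 members. GGGCGG, present in 45.0% of all promoters and 65.9% of those of the genes tested here, was in 5 of these 6 (RNPC3, SNRNP25, SNRNP48, ZCRB1 and ZMAT5), CCGGAAG (16.5% among the genes tested) in PDCD7 and ZCRB1, and CACGTG in SNRNP48. CCAAT, present in 34.6% of all promoters, was in SNRNP25, SNRNP48 and ZMAT5.

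POLR3K stood at 22.0, 19.1 and 19.6 FPKM in the control libraries and at 40.4, 47.9 and 37.7 FPKM in the knockdown libraries. The groups did not overlap, and the mean rose 2.08-fold, from 20.2 ± 1.55 to 42.0 ± 5.28 FPKM (SD, n = 3). In log2 it rose by 1.01 (SE 0.093, adjusted p = 3.87e-05 in limma). The gene on the other side of SNRNP25, RHBDF1, an inactive rhomboid protein whose locus lies 388 bp beyond, went the other way, from 14.1 ± 0.818 to 9.78 ± 1.00 FPKM (log2 change -0.49, SE 0.0835; limma adjusted p = 0.00113). The strand setting of the counting is not given in the sources used here, but the deposited loci of SNRNP25, POLR3K and RHBDF1 do not overlap.

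To see how common such a joint rise was, gene pairs on opposite strands with starts at most 500 bp apart in RefSeq were collected, a comparison chosen after the values of POLR3K had been seen. In 440 such pairs both genes were tested, and in 186 both were called. The 2 genes moved in the same direction in 110 of these 186 (59.1%). Of all genes tested 63.5% were called, and 40.4% of those calls were higher, so unrelated called genes would often match in direction too. The share to expect of unrelated pairs was not worked out, and whether 59.1% differs from it was not tested. In 23 pairs at least 1 gene was called and rose by at least 1 on the log2 scale, and SNRNP25 with POLR3K was the only pair in which both did. This count rests on a fold limit that POLR3K only just passed: its log2 change was 0.918 without knockdown replicate 2, 0.976 without control replicate 2 and 0.993 without control replicate 3, each just under the limit. ZCRB1 and ZMAT5 also have a partner of this kind, PPHLN1 and UQCR10, and neither member was called although both partners were called higher, UQCR10 in 16 of 17 settings and PPHLN1 in all 17.

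**Figure D2:**
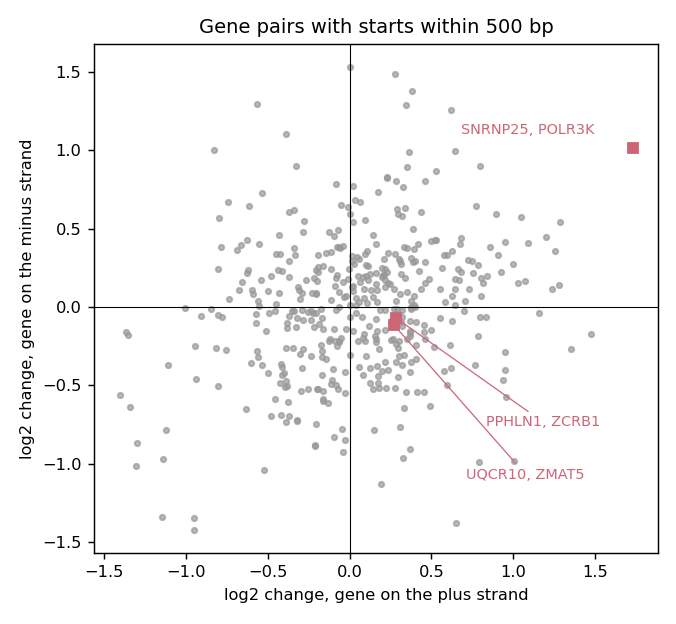
Log2 change of FPKM + 1 (knockdown minus control) for 440 gene pairs with starts at most 500 bp apart on opposite strands, the plus-strand gene on the x axis and the minus-strand gene on the y axis. SNRNP25 and POLR3K (1.73 and 1.01) lie alone at the upper right, while the pairs that hold ZCRB1 and ZMAT5 lie near the centre.

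PDCD7, SNRNP35 and RNPC3 fell. PDCD7, a U11-associated protein that reaches across to RNPC3, stood at 9.98, 10.7 and 10.6 FPKM in control and at 7.73, 7.43 and 6.07 FPKM in knockdown libraries. Its groups did not overlap, and it had the smallest spread of all members in control (a coefficient of variation of 3.78%). Its mean fell from 10.4 ± 0.394 to 7.08 ± 0.884 FPKM (SD, n = 3), which is -0.51 in log2 (SE 0.091, adjusted p = 0.00151 in limma).

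RNPC3, which carries RNA recognition motifs, binds U12 snRNA and bridges U11 and U12 within the particle, was the least abundant member in every library. It stood at 6.46, 8.29 and 8.79 FPKM in control and at 5.81, 5.35 and 5.03 FPKM in knockdown libraries. The groups did not overlap, with control replicate 1 closest to the knockdown values. The mean went from 7.84 ± 1.23 to 5.39 ± 0.392 FPKM, which is -0.46 in log2 (SE 0.112, adjusted p = 0.00713 in limma). Its 3′ end overlaps the locus of AMY2B, a pancreatic amylase gene, which was listed at 0.674 ± 0.199 and 0.582 ± 0.306 FPKM.

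SNRNP35, the U11 counterpart of the U1 protein SNRNP70, stood at 18.04, 15.6 and 13.4 FPKM in control and at 11.1, 11.3 and 11.9 FPKM in knockdown libraries. The control values were spread more widely than the knockdown values, and the lowest of them, in control replicate 3, was only a little above the highest knockdown value. The mean went from 15.7 ± 2.32 to 11.4 ± 0.457 FPKM, which is -0.41 in log2 (SE 0.0995, adjusted p = 0.0068 in limma). Both neighbours of SNRNP35 fell as well: RILPL1, on its one side, from 7.29 ± 1.01 to 3.38 ± 0.393 FPKM, and RILPL2, on the other, from 7.82 ± 0.401 to 3.49 ± 0.848 FPKM, with log2 changes of -0.92 and -0.99 (limma adjusted p = 0.000178 and 0.000379). SNRNP70 rose, from 76.3 ± 6.47 to 89.4 ± 2.91 FPKM (log2 change 0.23, limma adjusted p = 0.0131).

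The authors' deposited table did not call these 3 genes: its false discovery rates were 0.249 for PDCD7, 0.359 for RNPC3 and 0.634 for SNRNP35, with log2 fold changes of -0.42, -0.43 and -0.31. The loci it gives for RNPC3 and SNRNP35 are 24297 and 67324 bp longer than those in the tables of the single libraries, and the SNRNP35 locus there ends at 124018265, where RILPL1 ends. That of ZMAT5 is 10601 bp longer, while that of PDCD7 is the same in both. Whether the loci bear on the calls was not tested.

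SNRNP48, ZMAT5 and ZCRB1 did not pass the test. SNRNP48, a zinc finger protein that contacts the 5′ splice site, stood at 8.05, 9.94 and 9.82 FPKM in control and at 8.68, 9.46 and 7.92 FPKM in knockdown libraries, so that the groups overlapped throughout. Its log2 change was -0.08 with a 95% interval of -0.31 to 0.14 (limma adjusted p = 0.486). ZMAT5, a CCCH zinc finger protein of the U11 particle, stood at 12.5, 12.05 and 14.4 FPKM in control and at 11.2, 13.3 and 11.2 FPKM in knockdown libraries, also overlapping. Its log2 change was -0.12 with an interval of -0.33 to 0.095 (limma adjusted p = 0.299). ZCRB1, which joins an RNA recognition motif to a zinc knuckle, stood at 35.9, 37.5 and 43.4 FPKM in control and at 37.2, 36.3 and 37.1 FPKM in knockdown libraries. Control replicate 3 was the highest of the 6, and the knockdown values lay inside the control range. Its log2 change was -0.07 with an interval of -0.23 to 0.092 (limma adjusted p = 0.408). All 3 intervals include 0 and reach down to -0.23 or lower, so they do not show that these genes were unaltered.

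Counted together, 1 member was called higher and 3 lower, and the median log2 change of the 7 was -0.12. Among all genes tested 63.5% were called, 25.6% higher and 37.9% lower, with a median of -0.09, so the members' count of 4 in 7 is near the background. The groups did not overlap for 4 members, where 69.1% of all tested genes did not overlap. The balance of calls over all genes moved with the scaling: 40.4% of them were higher with FPKM as deposited and 52.4% (4304 higher, 3909 lower) after quantile normalization, which moved the median of all genes to 0.03. SNRNP25 stayed called higher and PDCD7, RNPC3 and SNRNP35 stayed called lower under each of the 16 alternative settings.

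**Figure D3:**
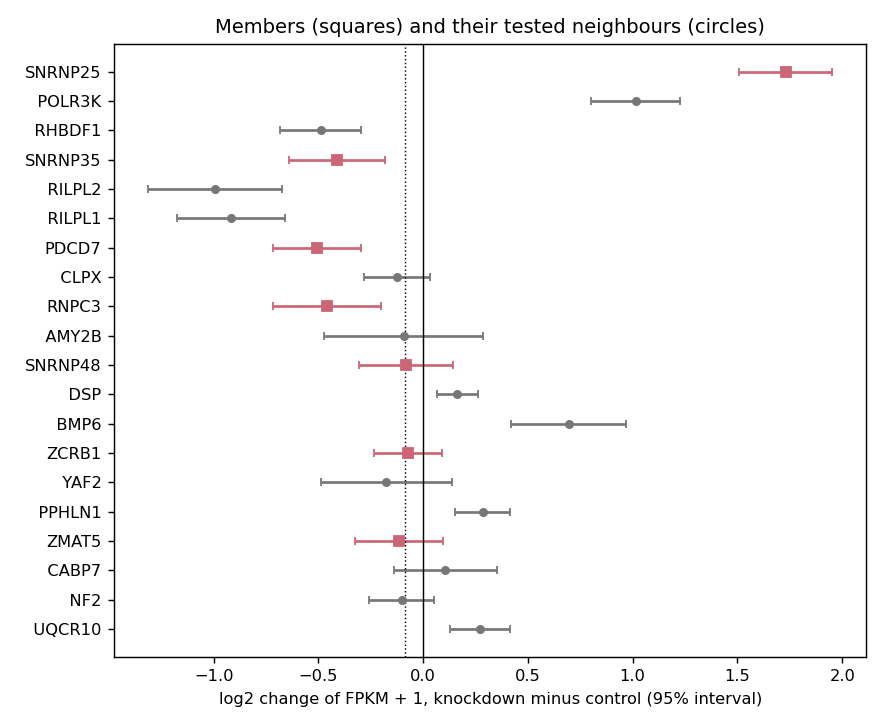
Log2 change of FPKM + 1 (knockdown minus control) with its 95% interval for each member (squares) and its tested nearest genes (circles, listed below it). The solid line is 0 and the dotted line the median of all genes, -0.09. SNRNP25 and POLR3K lie to the right at 1.73 and 1.01, and PDCD7, RNPC3 and SNRNP35 lie left of 0.

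Among the nearest listed genes of the 3 members that were not called, UQCR10, PPHLN1, DSP and BMP6 were called higher. YAF2, which lies 73733 bp from ZCRB1, CABP7 and NF2 were not called. UQCR10, a subunit of respiratory complex III, 388 bp from ZMAT5, went from 122 ± 7.95 to 148 ± 8.57 FPKM (log2 change 0.27, limma adjusted p = 0.0051), and its call was lost in 1 of 16 alternative settings (adjusted p = 0.057). PPHLN1, 14 bp from ZCRB1, went from 24.9 ± 1.41 to 30.5 ± 1.01 FPKM (log2 change 0.28, limma adjusted p = 0.00281). DSP, the desmosomal protein desmoplakin beside SNRNP48, went from 43.4 ± 0.306 to 48.7 ± 1.39 FPKM (log2 change 0.16, limma adjusted p = 0.0109), and its call was lost in 2 of 16 alternative settings. BMP6, a bone morphogenetic protein 114810 bp away on the other side of SNRNP48, went from 0.887 ± 0.117 to 2.06 ± 0.35 FPKM (log2 change 0.69, limma adjusted p = 0.00113). CLPX beside PDCD7, at 15.1 ± 1.12 and 13.7 ± 0.395 FPKM, was not called.

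The order of the members by level changed with the knockdown. In control libraries ZCRB1 was highest, at 35.9 to 43.4 FPKM, clear of the rest, and SNRNP35, ZMAT5, SNRNP25 and PDCD7 followed with each overlapping the next. SNRNP48 lay just below PDCD7 without overlap, its highest value 9.94 FPKM against a lowest of 9.98 FPKM, but it overlapped SNRNP25. RNPC3, which overlapped SNRNP48, was last. In knockdown libraries SNRNP25 and ZCRB1 led with overlapping values, ZMAT5 and SNRNP35 came next and overlapped each other, and SNRNP48, PDCD7 and RNPC3 followed without overlap. FPKM is scaled to length, so these levels can be set against each other, within the limits of the gene models used.

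SNRNP25 made up 12.03%, 10.2% and 8.64% of the FPKM summed over the 7 genes in control replicates 1, 2 and 3, and 32.1%, 32.9% and 30.8% in the knockdown replicates. The sum of all 7 was 103 to 110 FPKM in control and 115 to 124 FPKM in knockdown libraries. Without SNRNP25 the sum of the other 6 went the other way, from 90.9 to 100.4 FPKM in control to 79.3 to 83.2 FPKM in knockdown libraries. The ratio of the most to the least abundant member was 4.52 to 5.56 in control and 6.65 to 7.62 in knockdown libraries.

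**Figure D4:**
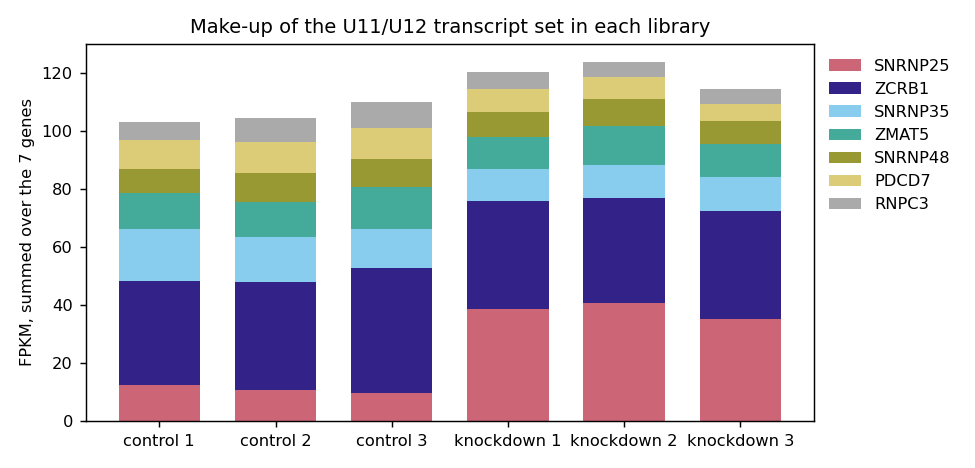
FPKM of the 7 genes stacked for each library, 3 control and 3 knockdown. The SNRNP25 segment, at the base, is 9.49 to 12.4 FPKM in control and 35.2 to 40.8 FPKM in knockdown libraries, while the segments above it sum to less in knockdown.

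SNRNP25 was then set against each of the 6 other members within each library, as the difference of their log2(FPKM + 1) values. All 6 differences were larger in every knockdown library than in every control library. Against SNRNP35 the difference went from -0.49 ± 0.0288 to 1.65 ± 0.149 (SD, n = 3), against RNPC3 from 0.42 ± 0.385 to 2.62 ± 0.0911, and against PDCD7 from 0.04 ± 0.225 to 2.28 ± 0.0908. Against ZCRB1 it went from -1.75 ± 0.312 to 0.05 ± 0.117, that is, from far below ZCRB1 to level with it. Against SNRNP48 and ZMAT5 the shifts were 1.81 and 1.85. In exact permutation tests, two-sided, p was 0.1 for each of the 6 pairs and 0.1 after Benjamini-Hochberg adjustment over them; 3 against 3 cannot give less. SNRNP25 was picked for this comparison because it was already known to stand among the largest rises. All 6 differences hold the same SNRNP25 values, so their shared direction follows from that rise. They describe it again and are not separate evidence for it.

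The genes whose profiles over the 6 libraries were most like each member were found by the root mean square difference of centred log2(FPKM + 1), among 9169 other genes that averaged 5 FPKM or more. For SNRNP25 they were ALPP, C9orf140 and SRM, at 0.0477, 0.068 and 0.0843. ALPP, placental alkaline phosphatase, has near-identical paralogs, so its value is uncertain; SRM, spermidine synthase, went from 25.6 ± 3.33 to 77.8 ± 4.13 FPKM. For the 3 members that fell the nearest profiles were PPCDC, FAM193B and ESD (PDCD7), SECISBP2L, UBN2 and ZNF83 (RNPC3), and DHCR7, ACSL1 and BCAS4 (SNRNP35), at 0.0371 to 0.0524. For the members that were not called they were FBXL13, MTM1 and GPR126 (SNRNP48), KATNA1, TMLHE and TCF7L1 (ZMAT5), and IQCB1, LOC100505876 and CFDP1 (ZCRB1), at 0.0182 to 0.0447. No member was among the nearest genes of another member. Only 3 genes of 9169 were kept per member, so this does not tell whether the members moved together.

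The RNA partners of the 7 proteins could not be followed: none of RNU11, RNU12, RNU4ATAC and RNU6ATAC was listed in any library. Of 9 listed factors that act in the minor spliceosome outside the U11/U12 particle, 3 were called higher and 2 lower, with a median log2 change of 0.04. ARMC7 went from 3.05 ± 0.402 to 4.47 ± 0.828 FPKM and CCDC84, also named CENATAC, from 2.86 ± 0.59 to 3.89 ± 0.343 (limma adjusted p = 0.0184 and 0.0389); TXNL4B, the partner of CCDC84, went from 6.26 ± 0.395 to 7.51 ± 0.762 (limma adjusted p = 0.0496). Each of these 5 calls was lost in at least 2 of the settings tried, and after median scaling or quantile normalization none of the 9 was called lower. Quantile normalization gave 5 higher and a median of 0.25, while 0 were higher without control replicate 1 or, among the 6 then tested, with a filter at 5 FPKM. ZRSR2, which recognises the 3′ splice site of U12-type introns, stood at 3.86 ± 0.259 and 3.86 ± 0.266 FPKM.

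Other lists of spliceosome genes, of which the Sm and SF3b proteins are shared with U11/U12, gave other counts than the 7 members. Among all genes tested 25.6% were called higher and 37.9% lower. All 7 Sm proteins, the ring on most spliceosomal RNAs, were called higher, with a median log2 change of 0.58, led by SNRPG, SNRPD1 and SNRPD3 (0.71, 0.69 and 0.66). Of 7 SF3b proteins, which hold the branch site in both machineries, 5 were higher and 1 lower, with PHF5A at 0.65, SF3B4 at 0.45 and SF3B3 at 0.37, and a median of 0.30. Of the 8 proteins specific to the U1 and U2 particles 5 were higher and 0 lower, with a median of 0.24, and SNRPA1, SNRPC and SF3A3 changed by 0.68, 0.51 and 0.40. Of 15 listed tri-snRNP proteins 12 were higher and 0 lower, with a median of 0.42 and with PRPF3, PPIH and SNRNP40 at 0.76, 0.73 and 0.68. Of 17 listed genes of snRNP assembly 9 were higher and 2 lower, with a median of 0.30, and the methylosome subunit WDR77, GEMIN4 and GEMIN5 changed by 0.98, 0.89 and 0.65. After median scaling the call of the 1 lower SF3b gene, SF3B14, was lost. The assembly genes called higher ran from 7, with no filter on low values or without knockdown replicate 1, to 13 after median scaling. After quantile normalization 1 of the U1 and U2 proteins was lower. SMN1 and SMN2 in the assembly list are near-identical copies, so the division of reads between them is uncertain. Whether the members differ from these lists was not tested.

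**Figure D5:**
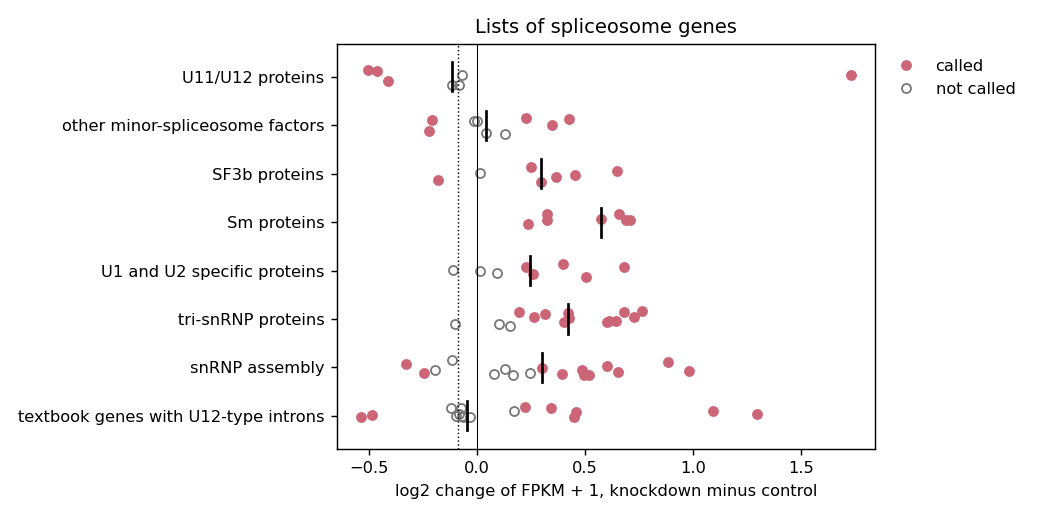
Log2 change of FPKM + 1 (knockdown minus control) of each tested gene in 8 lists; filled points were called, open points were not, short black bars are list medians and the dotted line is the median of all genes. The U11/U12 row has SNRNP25 at 1.73 far to the right and a median of -0.12, against list medians of 0.58 for Sm and 0.42 for tri-snRNP proteins.

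Genes known to hold U12-type introns, the substrates of the particle, were taken from a list of 18 names, since no genome sequence was used here to find such introns. Of these, 16 passed the filter, 6 were called higher and 2 lower, where 25.6% of all genes tested were called higher and 37.9% lower. Their median log2 change was -0.05, which turned to 0.04 after median scaling and 0.01 after quantile normalization. Quantile normalization gave 7 higher and 3 lower, and all 18 tested without the filter gave 6 higher and 3 lower. NOP2, a nucleolar methyltransferase whose U12-type intron was among the earliest described, went from 18.5 ± 1.38 to 46.8 ± 0.944 FPKM (log2 change 1.30, limma adjusted p = 1.71e-06). E2F2, a cell-cycle transcription factor, went from 2.36 ± 0.217 to 6.15 ± 0.163 FPKM, and THOC2, an mRNA export factor, from 22.2 ± 3.64 to 30.6 ± 0.753 FPKM (log2 changes 1.09 and 0.46). MAPK3, the kinase ERK1, fell from 32.5 ± 1.11 to 22.2 ± 1.10 FPKM and TRAPPC2, a trafficking factor, from 5.54 ± 0.249 to 3.68 ± 0.563 FPKM (log2 changes -0.53 and -0.49). The kinases MAPK8, MAPK9, MAPK12 and MAPK14 were not called, with log2 changes of -0.10 to -0.03. FPKM per gene adds spliced and unspliced RNA, so the removal of U12-type introns itself was not measured.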

How the data were processed

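RNA-seq of 3 control and 3 FOXD3 knockdown libraries was used; replicate numbers follow the order of deposit and only name a library. The authors deposited FPKM per locus for each library, per the file headers; the submitters' processing notes name TopHat2 2.0.12, Bowtie, Cufflinks 2.0.2, Cuffdiff and hg19 with no role. Not given in the sources used here: annotation and strand setting. The authors' comparison table, deposited as well, gives per gene an FPKM for each group, the log2 fold change, a false discovery rate and the p-value behind it, and is quoted only where named. Coordinates are 1-based.

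FPKM was summed per symbol (331 of 17789 symbols have several loci; each member has 1), with 0 for a symbol missing from a table. Genes averaging 0.5 FPKM or more were tested as log2(FPKM + 1) with limma 3.58.1 in R 4.3.3 (two-sided, eBayes trend, no covariate; called at a Benjamini-Hochberg adjusted p under 0.05), and the script was tested on simulated data. Single values had exact permutation tests (scipy 1.17.1). Depth was estimated from 90 intronless genes of at least 2500 bp (GENCODE 29). Only values that imply 5000000 to 12000000 fragments were read, so it could not leave that window. Each value was read as that of 1 fragment, and only 4 to 8 of the 90 genes entered per library. Counting error covers counting only. Named genes are the members, their nearest listed loci, up to 3 called genes of largest change per list (for U12-type introns, the largest rises and falls), and the 3 nearest profiles per member; others, such as ZRSR2, SNRNP70, SF3B14, the uncalled MAPK genes and single markers, were named after their values were seen. The members and lists were chosen with earlier results of these data known. Libraries had at most 2 identical values in common. The planned search for U12-type introns and protein features needed sequences not used here, and a list of names replaced the former. Alternatives covered the pseudocount, filter, scaling, moderation, locus choice and each library left out. One marker gene is not reported here.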

Additional observations from a re-analysis of the deposited data

How the results depend on the processing

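Under the 16 alternative settings the calls of SNRNP25 (log2 change 1.65 to 1.83), PDCD7 (-0.56 to -0.40), RNPC3 (-0.58 to -0.30) and SNRNP35 (-0.51 to -0.31) kept their direction and their side of the threshold; the highest limma adjusted p was 6.79e-05, 0.00689, 0.0382 and 0.0258. SNRNP48, ZMAT5 and ZCRB1 were not called in any of them. The sign of the small change of ZCRB1 turned after median scaling (0.016), and its values ran from -0.12 to 0.0081 when 1 library was left out; that of SNRNP48 turned after quantile normalization (0.019). The cause was not tested. A filter at 5 FPKM, which tests fewer genes, left 3295 genes called lower against 5050, and 1 rather than 2 genes with U12-type introns called lower, since TRAPPC2 was then not tested. The differences between SNRNP25 and the 6 other members kept their direction with a pseudocount of 0.1 and without each library, and FOXD3 gave p = 0.1 on either scale in the exact permutation test. The search for U12-type splice sites by their first bases was not run. No paired analysis was possible because the labels carry no replicate numbers; those printed only name the libraries. Depth is known only by estimate, which limits what can be said of FOXD3 and of genes under 1 FPKM.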
